A study of Rattus norvegicus with 44 samples.

Results

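The 10 genes described here encode heat shock chaperones of the cytosol and the mitochondrion. The array annotation names 14217 genes alone on at least 1 probe set, 8 of the 10 among them, while Hsp90aa1 and Hspa8 have shared probe sets only. They are Hspa1a, Hspa8, Dnajb1, Hsph1, Bag3, Hspb1, Hspb8, Cryab, Hsp90aa1 and Hspd1. They were chosen by name, with earlier results of these data known. For them, 15 probe sets whose annotation holds exactly 1 of these names were read. Of these probe sets, 11 name the gene alone, and 4 name it together with a gene outside the group. H4-II-E-C3 cells, a line derived from a rat hepatoma, were exposed in serum-free medium for 24 h to nickel (NiCl2) at 40, 140 or 400 µM, to chromium (Na2Cr2O7) at 0.275, 1 or 10 µM, or to cadmium (CdCl2) at 0.2, 0.55 or 1.2 µM. Unexposed control flasks were the only other group. Concentrations were matched between metals by viability assays, from no observed cell death to the same share of cell death at the top. RNA was measured on 44 arrays, 36 from exposed cells and 8 from controls, in 4 biological replicates with 2 control arrays each, and nothing in the labels says whether the control arrays of a replicate came from separate flasks.

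The condition of each array was not taken from its own deposited label, since the labels conflict with the study's table of condition averages. In the order used here, the 4 sample titles that mention a repeated microarray were moved to the end of the series and the titles were then matched to the columns in turn. With this order the condition means differed from that table by at most 7.5e-06 on the log2 scale over 992 probe sets, against a median difference of 0.164 and a largest of 4.32 with the labels as deposited. The averages cannot tell which replicate number belongs to which array of a condition. Both orders give the same condition and replicate number for 20 of the 44 arrays. With the labels as deposited, no member passed the test in any comparison, and the values under that order and over the 20 shared arrays are given with the results and in the closing section.

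Heat shock proteins keep other proteins folded or hold unfolded ones until they can be refolded or degraded. Hsp70 proteins bind exposed stretches of a client and release them with ATP, J-domain proteins deliver clients to them, and nucleotide exchange factors end the cycle. Small heat shock proteins hold unfolded clients without ATP, Hsp90 acts on clients such as kinases and receptors, and the chaperonin of the mitochondrion encloses proteins imported there. When unfolded proteins accumulate, the transcription factor Hsf1 binds inverted repeats of the unit nGAAn, called heat shock elements, upstream of many of these genes.

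The sequence upstream of the start site is shown for 6 members, because most members with a sequence hold letters of the heat shock element while their responses differed widely. RefSeq sequences of the rat build GRCr8 were found for 8 of the 10 members, and the 250 bases before the start were searched for GAANNTTC and TTCNNGAA, each of which reads the same on both strands and may overlap the other. The window of Hspa1a is chr20:3859506-3859755 on the plus strand, that of Dnajb1 chr19:41431142-41431391 on the minus strand, of Bag3 chr1:192533210-192533459 on the plus strand, of Hsph1 chr12:10427118-10427367 on the plus strand, of Hspa8 chr8:50080264-50080513 on the plus strand and of Hspd1 chr9:64084038-64084287 on the minus strand. The window of Hspd1, and that of Hspb8, which is not shown, lie inside the annotated span of the gene. The start used for them is therefore not the outermost one. Capitals mark every match, and joined matches appear as longer runs.
Hspa1a: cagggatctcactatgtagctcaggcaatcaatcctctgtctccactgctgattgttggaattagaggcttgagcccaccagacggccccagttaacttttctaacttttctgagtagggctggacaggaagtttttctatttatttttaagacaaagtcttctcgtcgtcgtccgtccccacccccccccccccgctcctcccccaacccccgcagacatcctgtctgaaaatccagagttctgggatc
Dnajb1: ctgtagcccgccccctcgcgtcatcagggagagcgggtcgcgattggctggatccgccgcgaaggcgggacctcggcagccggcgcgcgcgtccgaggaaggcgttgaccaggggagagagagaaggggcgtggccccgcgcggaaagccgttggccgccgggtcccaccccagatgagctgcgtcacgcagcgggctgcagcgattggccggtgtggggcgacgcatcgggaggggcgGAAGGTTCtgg
Bag3: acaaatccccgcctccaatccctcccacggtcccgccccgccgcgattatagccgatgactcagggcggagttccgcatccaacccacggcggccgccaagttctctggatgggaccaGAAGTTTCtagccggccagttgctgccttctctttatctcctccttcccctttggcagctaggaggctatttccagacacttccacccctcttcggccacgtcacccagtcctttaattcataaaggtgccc
Hsph1: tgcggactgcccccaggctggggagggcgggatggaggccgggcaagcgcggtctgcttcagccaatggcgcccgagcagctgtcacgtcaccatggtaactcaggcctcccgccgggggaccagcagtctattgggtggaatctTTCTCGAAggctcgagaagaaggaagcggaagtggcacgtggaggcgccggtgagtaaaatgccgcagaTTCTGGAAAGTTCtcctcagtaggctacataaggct
Hspa8: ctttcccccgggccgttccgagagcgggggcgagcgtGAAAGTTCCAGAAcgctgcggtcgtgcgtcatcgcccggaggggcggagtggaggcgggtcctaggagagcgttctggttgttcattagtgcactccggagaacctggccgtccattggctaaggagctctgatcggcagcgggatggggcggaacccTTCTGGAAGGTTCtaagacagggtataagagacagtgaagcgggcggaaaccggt
Hspd1: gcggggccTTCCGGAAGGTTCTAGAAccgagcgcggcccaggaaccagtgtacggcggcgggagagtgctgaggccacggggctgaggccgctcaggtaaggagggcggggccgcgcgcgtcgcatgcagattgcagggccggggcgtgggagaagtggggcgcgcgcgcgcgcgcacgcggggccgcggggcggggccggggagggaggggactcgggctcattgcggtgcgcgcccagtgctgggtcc

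At least 1 match was found in 7 of the 8 sequences, against 13.5% of 33469 promoters of the same length. Runs of 3 units, GAANNTTC followed by NNGAA or TTCNNGAA followed by NNTTC, occurred in 3 of the 8, those of Hsph1, Hspa8 and Hspd1, against 0.663% of all promoters. The match of Dnajb1 began 11 bases before the start, that of Hspb8 at 23, that of Bag3 at 132, and those of Hspb1 at 129 and 109. The Hspa1a window held no match, which says only that these letters are not within these 250 bases. Hspa8 and Hspd1, with 4 and 3 matches, did not pass the test against controls under any exposure, and Hspa1a, with none in its window, had the largest change of the group. No other window of a gene was searched, so matches near another start site would be missed. Whether the matches bear on the responses was not tested.

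Array values here are log2 values from robust multi-array averaging (RMA), an equal step on this scale being an equal fold. A value compares the same probe set between arrays and gives no order of abundance between genes. Each metal was fitted with limma over all 31042 probe sets that are not array controls, with the replicate number as a block, and a probe set passed at an adjusted p under 0.05. Of the defining hepatocyte genes, 6 of 7 measured lay above the 75th percentile of probe set means, Apoa1 being at the 43.1th, and no marker of fibroblasts, endothelium or leukocytes lay above the 52.1th. The log2 difference between the 3′ and 5′ probe sets of Gapdh, a measure of RNA integrity, had a median of 0.61 in controls and 0.49 to 0.56 at the highest concentrations, and its part in the results was not tested. Of the 4 arrays titled as repeated, chromium 0.275 µM replicate 4, cadmium 0.55 µM replicate 2 and, less so, nickel 140 µM replicate 4 stood apart. The SD of the log2 change over all probe sets was 0.335, 0.353 and 0.251 there, while the other replicates of the same conditions reached 0.198, 0.213 and 0.194. Across all probe sets, replicates 1 and 2 resembled each other, as did replicates 3 and 4, with median correlations of deviations of 0.201 and 0.235 against -0.247 to -0.387 for the other pairs. The top concentrations were chosen at a level of cell death in viability assays. A change in RNA per cell and a change in which cells remained therefore cannot be told apart.

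Cadmium at 1.2 µM gave the widest response of the heat shock genes. Of the 10 members, 7 rose and none fell, against 22% of all probe sets passing in either direction (6821 of 31042). Among probe sets above the median of probe set means, where every member but Hspb1 lay, 37.8% passed when tested alone. Hspa1a lay there, at the 56.1th percentile, with its cadmium arrays included. Its control mean was 5.81, beside a median of 5.965 over all array values, so the 37.8% is no independent background for Hspa1a. The rises ran from 27.4-fold for Hspa1a through 3.41-fold for Cryab, 2.41-fold for Bag3 and 2.24-fold for Hspb8 to 1.88-fold for Dnajb1, 1.56-fold for Hsp90aa1 and 1.52-fold for Hsph1. The median log2 change of the 10 genes was 0.77, against -0.04 over all probe sets. At an adjusted p of at most 0.001 and 1.8-fold, 5 members passed, where 0.976% of all probe sets did. Because the members were chosen with earlier results of these data known, these counts describe the group and do not test it. The arrays that both orders share hold only replicate 1 at this concentration, where Hspa1a changed by 5.99 and Cryab by 1.76. That fit has 1 residual degree of freedom and is no support for the calls. With the labels as deposited the changes were 1.44 for Hspa1a and 0.51 for Cryab, each at an adjusted p of 0.9.

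**Figure D1:**
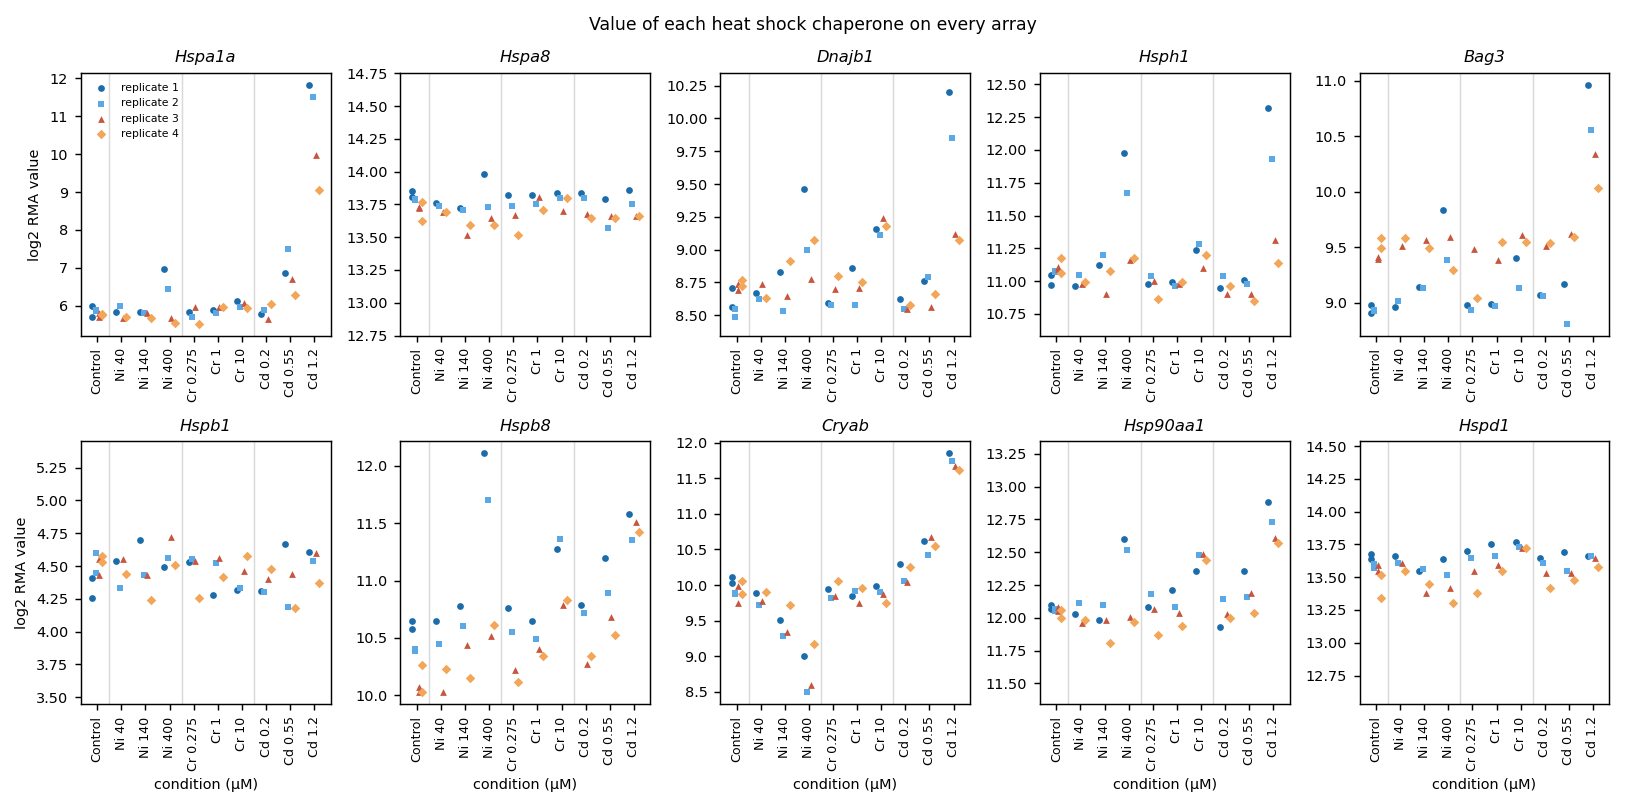
The log2 RMA value (y axis) of the counted probe set of each of the 10 genes is plotted for every array by condition (x axis, concentration in µM), with a marker for each replicate. The 4 cadmium 1.2 µM arrays of Hspa1a lie between 9.06 and 11.82, while its 8 control arrays lie between 5.70 and 6.0.

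Hspa1a encodes the stress-inducible Hsp70, which is scarce in unstressed cells. At cadmium 1.2 µM its probe set read 11.82, 11.52, 9.97 and 9.06 in replicates 1 to 4, against 5.70 to 6.0 in the 8 control arrays. All 4 exposed arrays were therefore far above every control, and replicates 1 and 2 were above replicates 3 and 4. The log2 change was 4.78 ± 0.34 (SE, 4 replicates; adjusted p = 1.2e-07), the 4th highest of all 31042 probe sets. A second probe set, shared with the near-identical paralog Hspa1b, changed by 4.87 ± 0.36, and the probe sets correlated at 0.995 over 36 exposed arrays and 4 control means. The annotation used here assigns the first probe set to Hspa1a and an older one to Hspa1b, so the rise is uncertain between these paralogs. At cadmium 0.55 µM the values were 6.87, 7.49, 6.72 and 6.29, all above the controls, with a log2 change of 1.03 ± 0.34 that did not pass (adjusted p = 0.09). That value does not rest on the repeated array of replicate 2, without which the change was 0.93 (adjusted p = 0.18). Without replicate 4 it passed, at an adjusted p of 0.046. At cadmium 0.2 µM the arrays lay between 5.64 and 6.04 and overlapped the controls.

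Hspa8 encodes the constitutive Hsp70 of unstressed cells. Its only probe set, which the annotation shares with Haus8l2, read 13.86, 13.75, 13.66 and 13.66 at cadmium 1.2 µM and 13.62 to 13.85 in controls. The groups overlapped, and the log2 change was -0.02 with a 95% interval of -0.15 to 0.10. Over all 44 arrays the probe set covered 13.52 to 13.98, a span of 0.46, beside 6.29 for Hspa1a.

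The helpers of Hsp70 rose with cadmium 1.2 µM to differing degrees. Bag3, a nucleotide exchange factor that links Hsp70 to autophagy and to small heat shock proteins, read 10.96, 10.56, 10.34 and 10.03, above all controls (8.91 to 9.58). Its log2 change was 1.27 ± 0.19 (adjusted p = 1.7e-04). Dnajb1, a J-domain protein that brings clients to Hsp70, read 10.20, 9.85, 9.12 and 9.07, with controls of 8.49 to 8.77. Its log2 change was 0.91 ± 0.16 (adjusted p = 6.9e-04), and 1.16 ± 0.16 on its second probe set. Hsph1, the Hsp110 that exchanges nucleotide on Hsp70 and takes part in disaggregation, read 12.32, 11.93, 11.31 and 11.14, with controls of 10.97 to 11.18. Its log2 change was 0.60 ± 0.15 (adjusted p = 0.01), replicate 4 lay within the control range, and the call was lost without replicate 1 (0.37, adjusted p = 0.083) or replicate 2 (adjusted p = 0.058). Neither Bag3, Dnajb1 nor Hsph1 passed at the lower cadmium concentrations.

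The small heat shock proteins divided. Cryab (αB-crystallin, a chaperone of lens and muscle that is also stress-inducible) read 11.85, 11.74, 11.67 and 11.61 at cadmium 1.2 µM, against 9.75 to 10.12 in controls. The replicates spread less than those of Hspa1a, and the log2 change was 1.77 ± 0.07 (adjusted p = 1.9e-10). At cadmium 0.55 µM Cryab read 10.62, 10.42, 10.67 and 10.55, again above every control, and had risen 1.53-fold (log2 change 0.61 ± 0.07, adjusted p = 3.7e-04). Hspb8, which works in a complex with Bag3, read 11.58, 11.35, 11.51 and 11.42 at 1.2 µM against 10.03 to 10.65 in controls, a log2 change of 1.16 ± 0.09 (adjusted p = 3.4e-07). At 0.55 µM it rose 1.44-fold (log2 change 0.52 ± 0.09, adjusted p = 0.0061), a call lost without replicate 3 (adjusted p = 0.071) and without the replicate block (adjusted p = 0.12). Hspb1 (Hsp25, the rodent form of Hsp27) read 4.61, 4.54, 4.60 and 4.37, with controls of 4.26 to 4.60. Its probe set lay at the 12.4th percentile of all probe set means and between 4.18 and 4.72 on all 44 arrays, so that a change at this low signal may not be detectable.

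Hsp90aa1, the inducible cytosolic Hsp90, read 12.88, 12.73, 12.61 and 12.57 at cadmium 1.2 µM against at most 12.10 in controls. No array overlapped, and the log2 change was 0.64 ± 0.07 (adjusted p = 1.7e-05). Both of its probe sets are annotated together with the pseudogene Hsp90aa1-ps17, and the assignment is uncertain to that extent. Hspd1, the Hsp60 chaperonin of the mitochondrial matrix, read 13.66, 13.66, 13.65 and 13.58, inside the control range of 13.34 to 13.68. Its log2 change was 0.08 with a 95% interval of -0.05 to 0.20. At cadmium 0.55 µM 2 of the 10 members rose, Cryab and Hspb8, where 4.97% of all probe sets passed and 10.7% of those above the median of probe set means. At 0.2 µM limma called none, where 0.184% of all probe sets passed, with 2 members (Cryab and Hspb8) at an unadjusted p under 0.05 and none called by ordinary least squares.

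**Figure D2:**
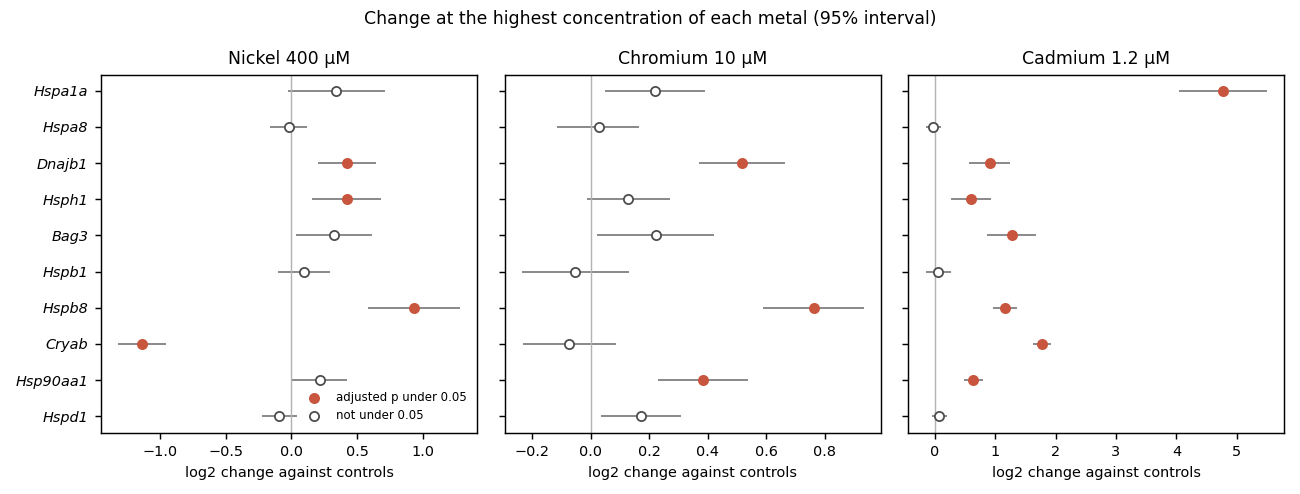
The log2 change against controls (x axis, its range set for each panel) is plotted for each gene (y axis) at the highest concentration of nickel, chromium and cadmium, with 95% intervals and filled points where the adjusted p was under 0.05. Cryab is the only filled point below 0, at -1.13 in nickel, and Hspa1a at 4.78 in cadmium is the farthest to the right.

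Nickel at 400 µM raised 3 members and lowered 1, where 21.9% of all probe sets passed (6798 of 31042). The share of members called is near the 40.1% that passed among probe sets above the median of probe set means. Hspb8 rose 1.91-fold, Dnajb1 and Hsph1 1.34-fold each, and Cryab fell to 0.456 of the control level. Under the stricter threshold Hspb8 and Cryab passed, where 1.31% of all probe sets did.

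Cryab read 9.0, 8.50, 8.60 and 9.17 at nickel 400 µM, below every control array (9.75 to 10.12). The log2 change was -1.13 ± 0.09 (adjusted p = 4.7e-07). At 140 µM it read 9.51, 9.28, 9.34 and 9.72, also below every control, with a log2 change of -0.49 ± 0.09 (adjusted p = 0.011), the only member called there, where 1.21% of all probe sets passed. That call was lost without replicate 1, 2 or 3 (adjusted p = 0.097, 0.11 and 0.11) and without the replicate block (0.19). At 40 µM the arrays overlapped the controls. Within each replicate Cryab was lower with every step in nickel and higher with every step in cadmium.

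Hspb8 read 12.11, 11.70, 10.52 and 10.61 at nickel 400 µM, a log2 change of 0.93 ± 0.16 (adjusted p = 7.1e-04). Replicates 3 and 4 fell within the control range of all replicates (10.03 to 10.65), although each was above its own controls by 0.47. Dnajb1 read 9.46, 9.0, 8.78 and 9.07, with every array above the controls, and changed by 0.43 ± 0.10 (adjusted p = 0.0077). Hsph1 read 11.98, 11.67, 11.16 and 11.18 and changed by 0.42 ± 0.12 (adjusted p = 0.023). The second probe set of Hsph1 changed by 0.44 ± 0.16 and did not pass (adjusted p = 0.065). Leaving out replicate 1 or 2 ended the call of Dnajb1 (adjusted p = 0.075 and 0.067) and of Hsph1 (0.16 and 0.17), and without replicate 1 the change of Hsph1 was 0.24. Hsph1 also missed the threshold without the replicate block, at an adjusted p of 0.054.

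The remaining members did not pass at nickel 400 µM. Hspa1a read 6.97, 6.44, 5.67 and 5.55, its first replicates above and its last below the 8 controls (5.70 to 6.0), with a log2 change of 0.34 ± 0.17 (adjusted p = 0.18). Hsp90aa1 read 12.60, 12.52, 12.01 and 11.97 against a control median of 12.06 and a highest of 12.10 (0.22 ± 0.10, adjusted p = 0.14), and its second probe set passed at 0.33 ± 0.11 (adjusted p = 0.04). Bag3 changed by 0.32 ± 0.14 (adjusted p = 0.11), and passed without replicate 4 (adjusted p = 0.012). The changes of Hspa8, Hspb1 and Hspd1 were -0.02, 0.10 and -0.09. At 40 µM limma called no member and no probe set (0%), with no member at an unadjusted p under 0.05 and none called by ordinary least squares.

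The rises with nickel were larger in replicates 1 and 2 than in replicates 3 and 4. In these replicates alone, 7 members passed at 400 µM, where 23.4% of all probe sets did: Cryab fell by 1.23, and Hspb8 (1.40), Hspa1a (0.84), Hsph1 (0.78), Bag3 (0.67), Dnajb1 (0.65) and Hsp90aa1 (0.49) rose on the log2 scale. The 4 repeated arrays are not among them, and each of these nickel arrays has the same condition in both orders. In replicates 3 and 4 alone 2 passed, Cryab (-1.04) and Hspb8 (0.47), where 7.43% of all probe sets did, while Hspa1a was at -0.15 and Hsp90aa1 at -0.06. Fewer calls in these replicates were thus found over the whole array as well. The difference between the pairs was noticed in the values and was not tested. The arrays as a whole also moved more in replicates 1 and 2: the SD of the log2 change over all probe sets at nickel 400 µM was 0.435 and 0.372 there, and 0.262 and 0.313 in replicates 3 and 4. Replicate 4 at this concentration was a repeated array, and without the 4 repeated arrays 7 members passed, where 24.3% of all probe sets did.

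Cadmium 1.2 µM divided in the same way for some members. Against its own controls, Hspa1a changed by 5.97, 5.64, 4.21 and 3.29 in replicates 1 to 4, Dnajb1 by 1.57, 1.33, 0.41 and 0.33, Hsph1 by 1.31, 0.86, 0.22 and 0.02, and Bag3 by 2.01, 1.63, 0.94 and 0.50. Cryab was even across replicates (1.77, 1.86, 1.8 and 1.64), and Hspb8 changed by 0.96, 0.95, 1.46 and 1.27. The second probe set of Hspb8 changed by 1.10, 1.53, 1.31 and 1.49, without the same division. The SD of the change over all probe sets, 0.302, 0.296, 0.311 and 0.277, did not divide so. In replicates 3 and 4 alone the change of Hsph1 was 0.12 (adjusted p = 0.35), and the other 6 genes passed, where 20.6% of all probe sets did. Control arrays differed between these pairs as well for Bag3 (8.91 to 8.98 in replicates 1 and 2, 9.39 to 9.58 in 3 and 4) and Hspb8 (10.39 to 10.65 and 10.03 to 10.26). The methods name different experimental and processing dates as the batch, and whether the replicate pairs mark them was not tested.

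**Figure D3:**
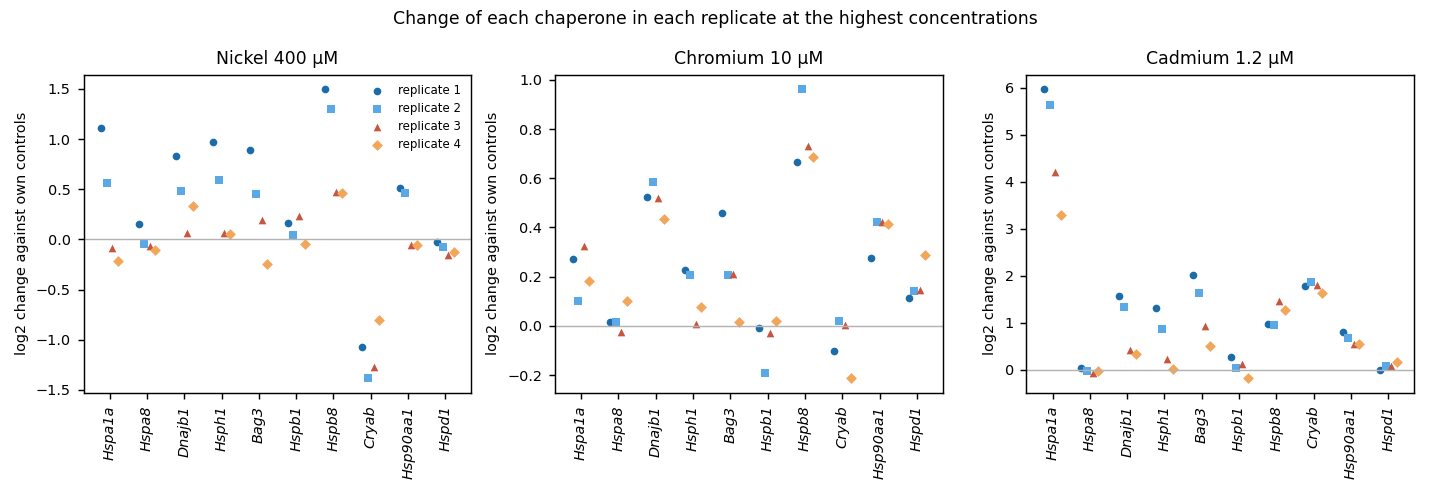
The log2 change of each of the 10 genes (x axis) against the mean of the control arrays of the same replicate (y axis, range set for each panel) is plotted for each replicate at the highest concentration of each metal. At nickel 400 µM Hspa1a is at 1.11 and 0.57 in replicates 1 and 2 and at -0.09 and -0.22 in replicates 3 and 4.

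Chromium at 10 µM raised 3 of the 10 members and lowered none. That share is near the 21.9% of all probe sets that passed (6786 of 31042) and says nothing particular about the group. Among probe sets above the median of probe set means, 42.5% passed. Hspb8 read 11.28, 11.36, 10.79 and 10.83, above every control, a 1.70-fold rise (log2 change 0.76 ± 0.08, adjusted p = 5.4e-06). The second probe set of Hspb8 changed by 0.56 ± 0.14 (adjusted p = 0.0086) and overlapped the controls, with 2 arrays above all of them. Dnajb1 read 9.16, 9.11, 9.24 and 9.18, a 1.43-fold rise (0.52 ± 0.07, adjusted p = 4.4e-05). Hsp90aa1 read 12.36, 12.48, 12.49 and 12.44, a 1.31-fold rise (0.39 ± 0.07, adjusted p = 9.2e-04). The replicates lay close together for Dnajb1 and Hsp90aa1, and all were above the controls. None of the 3 genes reached the 1.8-fold of the stricter threshold, where 1.5% of all probe sets passed. Over the arrays shared by both orders, those of replicates 1 and 2, Hspb8 (0.82), Dnajb1 (0.56) and Hsp90aa1 (0.35) passed as well, where 13.1% of all probe sets did.

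Hspa1a read 6.12, 5.98, 6.08 and 5.95 at chromium 10 µM, near the upper end of the controls (log2 change 0.22 ± 0.08, adjusted p = 0.066). Cryab read 9.98, 9.90, 9.87 and 9.75 and overlapped the controls, with a change of -0.07 and a 95% interval of -0.23 to 0.09. Hspd1 changed by 0.17 (adjusted p = 0.068), Bag3 by 0.22 (0.12) and Hsph1 by 0.13 (0.21). Without the 4 repeated arrays, which include 1 at chromium 0.275 µM and none at 10 µM, 6 members passed, where 26.9% of all probe sets did, with Hspa1a, Hspd1 and Bag3 joining at adjusted p of 0.027, 0.038 and 0.032 at the same changes. Bag3 also passed without replicate 4 (adjusted p = 0.019). At 0.275 and 1 µM limma called no member, where 0.00322% and 0.0226% of all probe sets passed, with none at an unadjusted p under 0.05 and none called by ordinary least squares.

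**Figure D4:**
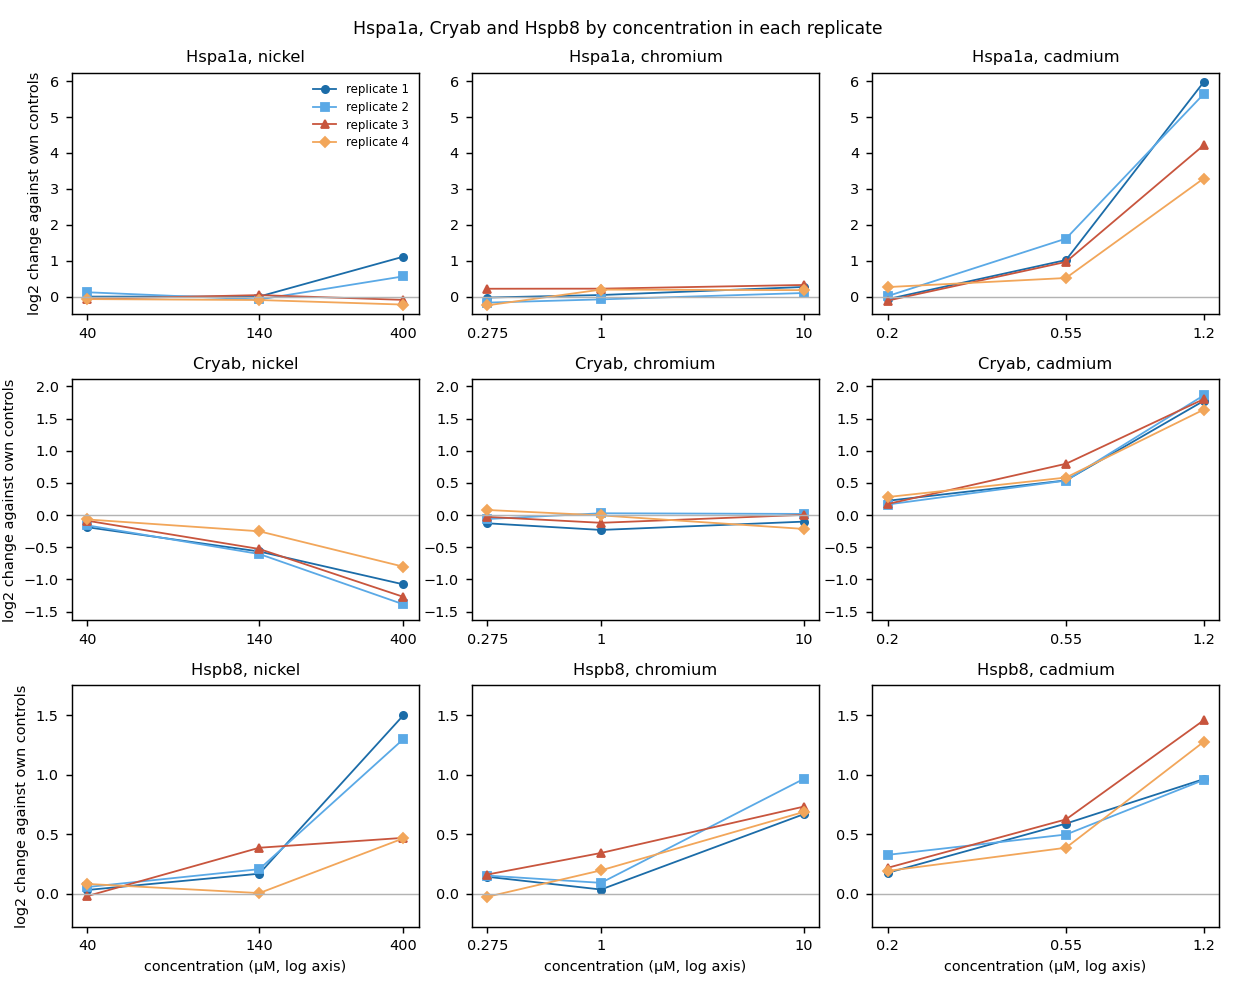
The log2 change of Hspa1a, Cryab and Hspb8 against the controls of the same replicate (y axis, shared within a gene) is plotted against concentration (x axis, µM, log axis) for each metal, with a line for each replicate. Cryab falls to between -0.80 and -1.39 in nickel and climbs to between 1.64 and 1.86 in cadmium, while its chromium lines stay between -0.23 and 0.08.

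The metals were compared directly at their highest concentrations in 1 fit of all exposures. Cadmium 1.2 µM exceeded nickel 400 µM in 6 members, where 25% of all probe sets differed, and exceeded chromium 10 µM in 7, where 25.2% did. Among probe sets above the median of probe set means, where Hspa1a was placed with its cadmium arrays included, 45% and 43.5% differed. Hspa1a was higher in cadmium by 4.43 ± 0.29 on the log2 scale than in nickel (adjusted p = 3.6e-14) and by 4.56 ± 0.29 than in chromium (4.0e-14). Cryab, which moved in opposite directions, differed between cadmium and nickel by 2.9 ± 0.09 (adjusted p = 3.9e-23), a 7.48-fold difference, and between cadmium and chromium by 1.84 ± 0.09. Bag3 was higher in cadmium by 0.95 ± 0.16 and 1.05 ± 0.16. These 3 genes kept both calls when any replicate was left out.

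The other differences were smaller. Hsp90aa1 was higher in cadmium than in nickel by 0.42 ± 0.08 (adjusted p = 1.9e-04) and than in chromium by 0.25 ± 0.08 (0.024), and Dnajb1 by 0.48 ± 0.14 (0.0077) and 0.39 ± 0.14 (0.033). In replicates 3 and 4 alone the difference of Dnajb1 from chromium turned to -0.11 (adjusted p = 0.56). Hsph1 exceeded its chromium level by 0.47 ± 0.13 (adjusted p = 0.007), but its difference from nickel was 0.18 (95% interval -0.09 to 0.45). Hspb8, which rose in all metals, was higher in cadmium than in chromium by 0.40 ± 0.14 (adjusted p = 0.033), and its difference from nickel was 0.23 (95% interval -0.06 to 0.51). Hspd1 exceeded nickel by 0.17 ± 0.05 (adjusted p = 0.016). Leaving out replicate 1 or 2 ended the calls against chromium of Dnajb1 (log2 differences 0.18 and 0.28, adjusted p = 0.43 and 0.28), Hsp90aa1 (0.17 and 0.26, adjusted p = 0.21 and 0.081) and Hsph1 (0.27 and 0.41, adjusted p = 0.11 and 0.091). Leaving out replicate 3 or 4 ended that of Hspb8 (log2 differences 0.29 and 0.34, adjusted p = 0.2 and 0.16). The call of Dnajb1 against nickel was lost without replicate 2 (log2 difference 0.36, adjusted p = 0.14), and that of Hspd1 without replicate 2, 3 or 4 (log2 differences 0.13 to 0.18, adjusted p = 0.069 to 0.15). Without replicate 1, Hspb8 passed against nickel, at an adjusted p of 0.023. Hspa8 and Hspb1 did not pass in either comparison.

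Other chaperones and related genes, heat shock factors and mitochondrial proteases among them, were read from a list of 64 genes, 60 of them with a probe set of their own. At cadmium 1.2 µM 29 rose and none fell, where 22% of all probe sets passed in either direction, with a median log2 change of 0.21, against -0.04 over all probe sets. Among probe sets above the median of probe set means, 37.8% passed in cadmium, 42.5% in chromium and 40.1% in nickel at the highest concentrations. Dnaja4, a J-domain protein, rose by 1.78 ± 0.19 (adjusted p = 9.4e-06) and Dnajc18, a J-domain protein of membranes, by 0.98 ± 0.11 (8.7e-06). These were the only genes of this list past the stricter threshold against controls at any highest concentration. Dnaja4 also passed it in cadmium against nickel (1.29 ± 0.16) and against chromium (1.41 ± 0.16). At chromium 10 µM 32 of the 60 rose and none fell, where 21.9% of all probe sets passed, with a median of 0.26 against -0.004 over all probe sets. At nickel 400 µM 12 rose and 7 fell, where 21.9% of all probe sets passed as well, with a median of 0.05 against -0.02. Among these, all 8 measured subunits of the CCT ring, the chaperonin that folds actin and tubulin, rose in chromium by 0.20 to 0.45, 4 rose in cadmium and 1 in nickel; this subgroup was chosen after its values were seen. Hsf1, the main heat shock factor, changed by 0.40 ± 0.09 in cadmium (adjusted p = 0.0033), 0.02 in chromium and 0.00 in nickel. Hspe1, the partner of Hspd1 in the mitochondrial chaperonin, rose by 0.30 ± 0.06 in cadmium and by 0.27 ± 0.07 in chromium (adjusted p = 9.2e-04 and 0.0078).

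Chaperones of the endoplasmic reticulum, 20 listed and all measured, were set beside them. At cadmium 1.2 µM 11 rose and 1 fell (median 0.28), where 22% of all probe sets passed. At nickel 400 µM 10 rose and 2 fell (median 0.24), and at chromium 10 µM none rose and 9 fell (median -0.22), where 21.9% of all probe sets passed in each. The medians over all probe sets were -0.04, -0.02 and -0.004. The shares passing among probe sets above the median of probe set means were 37.8%, 40.1% and 42.5%. Dnajc3, a J-domain protein of that compartment, passed the stricter threshold in cadmium at 1.18 ± 0.12 (adjusted p = 6.1e-06). Hspa5, the Hsp70 of the endoplasmic reticulum, was 1.10 ± 0.09 higher in cadmium 1.2 µM than in chromium 10 µM, Dnajc3 1.01 ± 0.13 and Hyou1, a relative of Hsp70 in the same compartment, 0.90 ± 0.15 higher. Members of the list of other chaperones and related genes rose in chromium where members of the reticulum list fell. The difference between the lists was not tested.

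**Figure D5:**
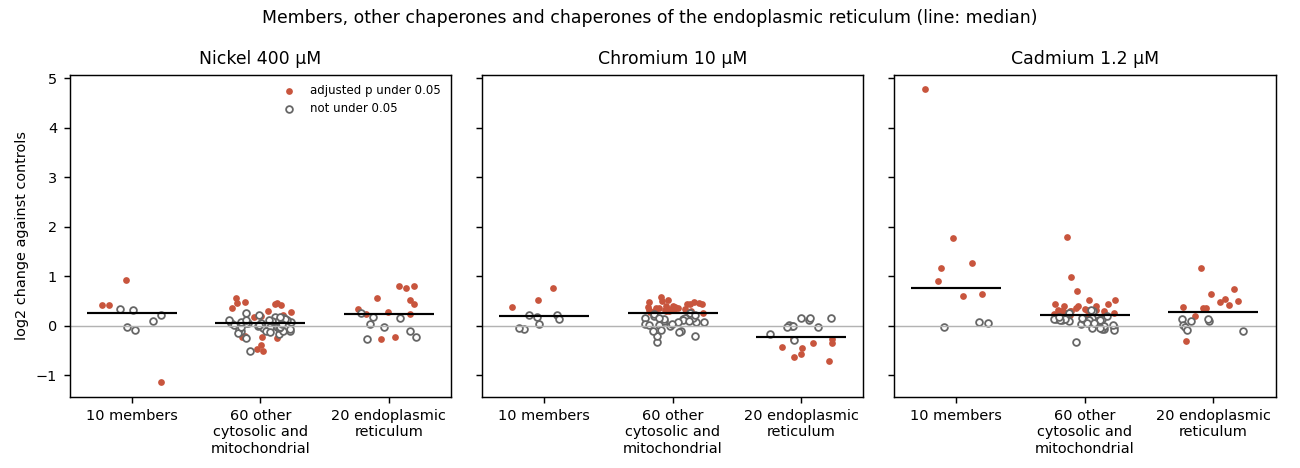
The log2 change against controls (y axis) is plotted at the highest concentration of each metal, each point a gene. The groups (x axis) are the 10 members, 60 other cytosolic and mitochondrial chaperones and related genes, and 20 chaperones of the endoplasmic reticulum. Points are filled where the adjusted p was under 0.05, with a line at the median. In chromium the medians are 0.26 for the other cytosolic and mitochondrial genes and -0.22 for the endoplasmic reticulum.

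The genes whose pattern was most like that of Hspa1a were found by Pearson correlation over 36 exposed arrays and 4 control means with replicate means removed. They were S100a6 (0.955), a calcium-binding protein, Dnaja4 (0.954), S100g (0.943), Igsf23 (0.939) and Sncg (0.933), which encodes γ-synuclein. All rose at cadmium 1.2 µM, S100a6 by 3.61 ± 0.11, Dnaja4 by 1.78 ± 0.19, S100g by 2.24 ± 0.07, Igsf23 by 2.06 ± 0.12 and Sncg by 2.03 ± 0.21 on the log2 scale. These correlations are descriptions over arrays that share controls, and the cadmium 1.2 µM arrays span most of their range.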

How the data were processed

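RNA from H4-II-E-C3 rat hepatoma cells was measured on a whole-genome Affymetrix rat array. Deposited values are log2 signals that the authors obtained with RMA (run in Partek), which adjusts background, normalizes between arrays and summarizes probes. Detection calls were not used here, so no filter was applied, and the number of arrays limits the precision. Conditions followed the order described in the report. The members, lists and alternatives were chosen with earlier results of these data known.

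Each metal was fitted with limma 3.58.1 in R 4.3.3 on 31042 probe sets, with concentration and replicate number as terms, control arrays of a replicate averaged and 9 residual degrees of freedom. Contrasts between metals came from 1 fit with 27. P-values were adjusted by Benjamini-Hochberg over all probe sets, and the stricter threshold used the FDR of the single contrast. A gene was counted through 1 probe set, single-gene annotations first, then the highest mean. All members are named, as are listed genes past the stricter threshold and the 5 most like Hspa1a; Hsf1, Hspe1 and the CCT subunits were added after their values were seen. Replicate numbers were taken to pair the arrays, since the titles give each biological replicate its own controls. The median correlation of deviations within a number was 0.32 to 0.496, and -0.216 between numbers. The lowest correlation within a number was -0.237, and 87.5% of samples correlated most with their own number. The block is therefore part of the fit. The titles and methods call the replicates biological, and p-values measure the spread between these arrays. The fit was tested on simulated data. Alternatives are given in the closing section. The RefSeq sequences and gene names are of GRCr8.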

Additional observations from a re-analysis of the deposited data

Results flagged for a closer look

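Of 100 groups of 4 replicates (10 genes in 10 conditions, control arrays averaged), 2 held a replicate far from the others by Dixon's ratio of gap to range, and chance flags about 1 in 20 groups. For Hspb1 in chromium 0.275 µM, replicate 4 read 4.26 while the others lay between 4.53 and 4.55 (ratio 0.907); it is 1 of the 4 repeated arrays. For Hspd1 in cadmium 1.2 µM, replicate 4 read 13.58 while the others lay between 13.65 and 13.66 (ratio 0.897).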

How the results depend on the processing

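Of 30 member results past the threshold, all 30 kept their call with the 8 control arrays as separate samples, with either control array alone, with the mean of all probe sets of a gene, without dim probe sets (Hspb1 has no value there) and without the 4 repeated arrays, and 17 of 17 did in 1 fit over all metals. With the labels as deposited none was kept, and the cause was not tested. There, each count of members is 0, at 140 and 400 µM nickel, 10 µM chromium, 0.55 and 1.2 µM cadmium, between metals and at the stricter threshold, and the differences of Hsp90aa1 (-0.076) and Hspd1 (-0.005) between cadmium and nickel and of Hsp90aa1 (-0.038) and Hspb8 (-0.50) between cadmium and chromium turned. In replicates 3 and 4 alone, Dnajb1 between cadmium and chromium turned to -0.11.

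For nickel 400 µM, 4 members became 7 over the arrays that both orders share, which for nickel are those of replicates 1 and 2 (23.4% of all probe sets passed, beside 21.9%), and without the 4 repeated arrays (24.3%), 2 in replicates 3 and 4 alone (7.43%), and 2 to 5 with a replicate left out. The 1 member at nickel 140 µM became 0 over the shared arrays, without the replicate block and in either pair of replicates (0.219% to 0.354% of all probe sets, beside 1.21%), and 0 to 1 with a replicate left out. For chromium 10 µM, 3 became 6 with separate control arrays (28.2% of all probe sets, beside 21.9%) or without the repeated arrays (26.9%), and 5 without dim probe sets (42.5%). For cadmium 0.55 µM, 2 became 1 over the shared arrays (0.168% of all probe sets, beside 4.97%) and without the replicate block (0.638%), 0 in replicates 1 and 2 alone (0.148%), and 1 to 3 with a replicate left out. The 7 between cadmium and chromium became 4 without the replicate block (17.6% of all probe sets, beside 25.2%), with arrays centred on brighter probe sets (27.2%), and in replicates 3 and 4 alone (16.9%), and 4 to 6 with a replicate left out. At the stricter threshold, the 2 of nickel became 1 without the replicate block, with Control 2 arrays alone, with centred arrays, by ordinary least squares, with the mean of all probe sets, in replicates 3 and 4 alone and with any replicate left out. The 5 of cadmium became 3 by ordinary least squares and in replicates 3 and 4 alone, and 3 to 4 with a replicate left out. The replicate block is part of the fit. Without it 7 of the 30 calls were lost, and by ordinary least squares 4, Hsph1 at cadmium 1.2 µM (adjusted p = 0.058) and nickel 400 µM (0.079) among them.

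Over all probe sets, the count at cadmium 1.2 µM ran from 0 (labels as deposited) and 1105 (replicates 1 and 2 alone) to 9359 (separate control arrays), beside 6821. Centring on brighter probe sets moved the share of higher calls from 57.6% to 31.6% at cadmium 1.2 µM, from 67.4% to 29.7% at 0.55 µM, from 57.6% to 44.5% at nickel 400 µM and from 52.3% to 40.4% between cadmium and chromium. The centring turned no member, but 4 of the 30 member calls were lost. Without replicate 1, 2, 3 or 4, the calls lost were 7, 9, 4 and 2 of the 30. The pairs of replicates and the fit without repeated arrays were chosen after the data were seen.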
